A study of Mus musculus with 10 samples.

Results

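The 43 genes described here encode the machinery that licenses replication origins and copies DNA: the origin recognition complex, the MCM helicase with its loaders and activators, the polymerases and primase, the clamp and its loader, and the enzymes that supply deoxynucleotides and histones. They were taken from a list of replication genes, and for each of them the brightest probe set on average over the 10 arrays was read, among those assigned to 1 gene symbol. All 43 were found among the 18193 genes measured. Their levels were compared between 3 groups of mouse bone marrow cells, all of them transduced with a MigR1 retrovirus that also encodes green fluorescent protein. The GFP group carried the empty vector (3 arrays). The AML1/ETO group carried the fusion protein that arises from a translocation in acute myeloid leukaemia (3 arrays). The W692A group carried AML1/ETO with a tryptophan-to-alanine substitution in the MYND domain, the part of ETO that binds corepressors (4 arrays). All cells came from C57BL/6 mice 5 to 6 weeks old, were selected from marrow as lineage-negative and Sca1-positive, and were grown with IL-3 (10 ng/ml), IL-6 (20 ng/ml) and SCF (10 ng/ml). From each independent transduction, 25000 live GFP+, Lin-, Sca1+, cKit+ cells were sorted 48 hours after the second exposure to virus, and 50 ng of RNA was amplified and put on 1 array. The labels do not tie a transduction to a mouse, so p-values measure the spread between these samples, which may be partly technical.

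A cell licenses its origins in G1, when the origin recognition complex, Cdc6 and Cdt1 load the MCM helicase as an inactive double ring. At the start of S phase the kinase Cdc7-Dbf4 and cyclin-dependent kinases turn the ring into an active helicase with Cdc45 and the GINS complex, and polymerases copy the unwound strands. Transcripts of many of these genes rise towards S phase under the E2F transcription factors, so cycling blood progenitors carry more of them than resting stem cells.

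Levels are log2 intensities, so a difference of 1 is a doubling, and they are compared between arrays but not between genes. A value was taken as above background when it exceeded 2.04, the brightest value of 27 bacterial control probe sets on any array. Of the 43 genes, 40 were above this bound on all 10 arrays, Rfc3 and Tyms were below it on all 10, and Pold2 was below it with AML1/ETO only. Runx1, the mouse counterpart of AML1, was at 5.81 to 5.90 with GFP, 6.61 to 6.89 with AML1/ETO and 6.67 to 7.09 with W692A. Runx1t1, the counterpart of ETO, was at 2.10 to 3.13 with AML1/ETO but at 0.53 to 0.86 with W692A and 0.42 to 1.03 with GFP. Whether these mouse probe sets match the sequence of the virus was not tested, so they do not check the labels. Of the surface markers of the gate, Kit was below the bound on all 10 arrays, and Ly6a, which encodes Sca1, was not analysed here. The 18S ribosomal RNA controls were at 7.74 to 8.13 with GFP, 8.18 to 8.65 with AML1/ETO and 8.56 to 9.0 with W692A. The Gapdh control, as its 3′ signal minus its 5′ signal, stood at 4.83 to 4.99 with GFP, at 3.81 to 4.17 with W692A, and at 4.08, 4.01 and 5.04 on AML1/ETO replicates 1, 2 and 3.

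With AML1/ETO, 41 of the 43 replication genes fell against the vector and none rose, also at an unadjusted limma p below 0.05. The median difference was -1.06 on the log2 scale, with a range of -1.78 to -0.36, and 26 genes fell at least 2-fold. Over all genes, 15.8% were called lower and 12.9% higher by the same test (limma, adjusted p below 0.05), with a median difference of -0.02. For 40 of the 43, every AML1/ETO array lay below every GFP array, which held for 21.0% of all genes. With W692A, 9 of the 43 fell against the vector and none rose, where 9.07% of all genes were called lower and 5.45% higher. At an unadjusted limma p below 0.05, 15 of the 43 were lower and 2 higher, where 15.1% of all genes were lower and 10.9% higher. The median of the 43 was -0.20, against 0.01 over all genes. Between the constructs, 39 of the 43 were higher with W692A than with AML1/ETO and none was lower, adjusted or not, with a median of 0.78, where 9.61% of all genes were called higher and 11.1% lower, with a median of 0.03. The cells were measured in bulk, so fewer cells in S phase and less RNA per cell cannot be told apart.

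**Figure D1:**
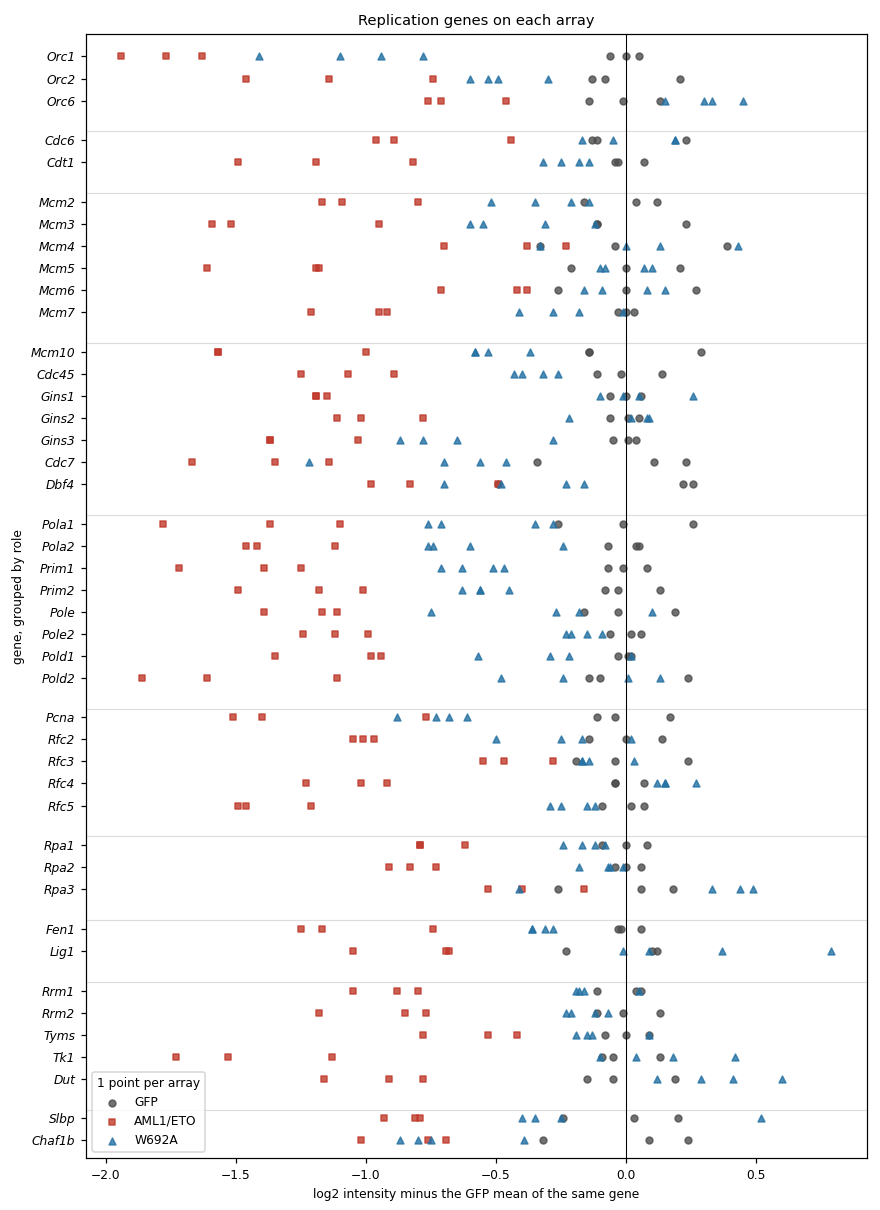
Each row is 1 of the 43 replication genes, in groups by role, and each point is 1 array. The horizontal axis is the log2 intensity minus the GFP mean of the same gene. The AML1/ETO arrays lie to the left of the GFP arrays for nearly every gene, with array medians of -1.21, -1.01 and -0.90, and the W692A arrays lie near or slightly left of 0, with medians of -0.16 to -0.25.

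The shift was present on each AML1/ETO array. Relative to the GFP mean, the median of the 43 genes was -1.21, -1.01 and -0.90 on replicates 1, 2 and 3, and 42, 43 and 41 genes lay below every GFP array, against 33.3% to 35.5% of all genes. On the W692A arrays the medians were -0.16, -0.25, -0.23 and -0.18, and 25, 30, 26 and 28 genes lay below every GFP array, against 29.3% to 31.9% of all genes. AML1/ETO replicate 3, whose Gapdh difference of 5.04 was above those of all GFP arrays, held the highest AML1/ETO value for 27 of the 43 genes and the lowest for 3. Of all genes, 35.8% had their highest AML1/ETO value on that array.

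The origin recognition complex binds origins and marks where the helicase is loaded. Of its subunits, 3 were listed, and all of them fell with AML1/ETO. Orc1, the large ATPase subunit, was at 4.77, 4.88 and 4.83 with GFP, at 3.20, 2.89 and 3.06 with AML1/ETO, and at 4.05, 3.42, 3.73 and 3.89 with W692A. The groups did not overlap, with GFP highest and AML1/ETO lowest. By its brightest probe set Orc1 was 3.44-fold lower with AML1/ETO (-1.78 on the log2 scale, SE 0.151, limma adjusted p = 4.02e-07) and 2.08-fold lower with W692A (-1.06, SE 0.142, limma adjusted p = 0.00012). When its 2 probe sets were averaged, one of them above the bound on only 2 of the 10 arrays, the differences were -0.80 and -0.52, and both still passed. Between the constructs its difference of 0.72 (limma adjusted p = 0.00173) became 0.28 and did not pass (limma adjusted p = 0.146). Orc2, a core subunit, had values of 5.98 to 6.32 with GFP, 4.65 to 5.37 with AML1/ETO and 5.51 to 5.81 with W692A. Its fall of 2.17-fold with AML1/ETO passed (limma adjusted p = 9.74e-05), and its difference of -0.48 with W692A did not (limma adjusted p = 0.0535), although no W692A array reached the lowest GFP array. Without AML1/ETO replicate 2 or 3, or W692A replicate 1, the latter did pass (limma adjusted p = 0.0247 to 0.0425). By another Orc2 probe set above the bound on all arrays, the mean was higher with W692A (4.01) than with GFP (3.56). That difference of 0.45 did not pass (limma adjusted p = 0.167 over all probe sets). The remaining Orc2 probe set, above the bound on 9 arrays, differed by -0.23 with W692A and did not pass (limma adjusted p = 0.315). Orc6, the smallest subunit, fell 1.56-fold with AML1/ETO (limma adjusted p = 0.00122). Its W692A values of 6.56 to 6.86 lay above all GFP values of 6.27 to 6.54, a difference of 0.31 that did not pass (limma adjusted p = 0.105).

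Cdc6 and Cdt1 bring the MCM ring to the origin, and both fell with AML1/ETO. Cdc6 was at 6.59, 6.95 and 6.61 with GFP, at 5.76, 5.83 and 6.28 with AML1/ETO, and between 6.55 and 6.91 with W692A. Its W692A values thus spread over those of GFP and stood above those of AML1/ETO, where it was 1.69-fold lower than the vector (limma adjusted p = 0.00197). With the Gapdh control signal as a covariate that difference of -0.76 was -0.45 and did not pass (limma adjusted p = 0.0681). Cdt1 was at 9.09 to 9.20 with GFP, 7.64 to 8.31 with AML1/ETO and 8.81 to 8.99 with W692A. It fell 2.25-fold with AML1/ETO (limma adjusted p = 2e-05), and its difference of -0.22 with W692A did not pass (limma adjusted p = 0.357).

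The MCM helicase is a ring of 6 different subunits, Mcm2 to Mcm7. By the probe sets that represent them, 5 fell with AML1/ETO, by 0.50 to 1.36 on the log2 scale. With W692A none of these passed against the vector by limma, where Mcm2 and Mcm3 were lower at an unadjusted p below 0.05. Another probe set of Mcm2 (-0.46) and another of Mcm7 (-0.61), both above the bound on all arrays, were called lower with W692A. Their limma adjusted p was 0.036 and 0.014 over all probe sets. The remaining MCM subunit probe sets above the bound on all arrays did not pass with W692A. A dimmer Mcm3 probe set, above the bound on 5 arrays, was called lower with W692A (-0.84, limma adjusted p = 0.00173 over all probe sets). Mcm2 was at 8.30, 8.22 and 8.02 with GFP, at 7.09, 7.01 and 7.38 with AML1/ETO, and at 8.04, 7.66, 7.97 and 7.83 with W692A. Mcm3 was at 6.46, 6.12 and 6.12, at 4.64, 4.71 and 5.28, and at 6.11, 5.63, 5.68 and 5.92 in the same order. For both subunits AML1/ETO stood apart below the other groups, with falls from the vector of 2.03-fold for Mcm2 (limma adjusted p = 4.7e-05) and 2.56-fold for Mcm3 (limma adjusted p = 3.01e-05). Mcm5 was at 9.66, 9.24 and 9.45 with GFP, at 7.84, 8.27 and 8.26 with AML1/ETO, and at 9.37, 9.52, 9.55 and 9.35 with W692A. All W692A arrays lay within the GFP range, more than 1 log2 unit above every AML1/ETO array. Mcm5 fell 2.51-fold with AML1/ETO (limma adjusted p = 5.59e-06) and was 2.5-fold higher with W692A than with AML1/ETO (limma adjusted p = 7.67e-06). Mcm7 was at 10.12, 10.09 and 10.15 with GFP, at 8.91, 9.20 and 9.17 with AML1/ETO, and at 9.71, 9.84, 10.11 and 9.94 with W692A. It fell 2.04-fold with AML1/ETO (limma adjusted p = 2e-05), with W692A between the other groups and touching the GFP range.

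Mcm4 and Mcm6 moved least by the probe sets that represent them. Mcm4 was at 7.07, 7.50 and 6.78 with GFP, at 6.41, 6.73 and 6.88 with AML1/ETO, and at 7.11, 7.54, 6.78 and 7.24 with W692A. The groups overlapped, and the difference of -0.44 between AML1/ETO and GFP did not pass (SE 0.204, limma adjusted p = 0.135). Without GFP replicate 3 it did (limma adjusted p = 0.0496). Mcm6 was at 8.80, 9.07 and 8.54 with GFP, at 8.09, 8.38 and 8.42 with AML1/ETO, and at 8.71, 8.95, 8.64 and 8.88 with W692A. Its AML1/ETO values lay just below the others, a 1.42-fold fall (limma adjusted p = 0.019) that no longer passed without GFP replicate 1, GFP replicate 2 or AML1/ETO replicate 1 (limma adjusted p = 0.05, 0.102 and 0.0974). Both probe sets carry the suffix by which the maker marks probe sets with probes that may also match other transcripts, as do those of Mcm5, Pold1, Rfc2, Fen1 and Rrm2, which differed from GFP by -1.33 to -0.93 with AML1/ETO. Mcm4 and Mcm6 each have 1 other probe set above the bound on all arrays. By that one, Mcm4 averaged 7.00 with GFP, 5.71 with AML1/ETO and 6.57 with W692A, a fall of 1.29 on the log2 scale with AML1/ETO (limma adjusted p = 2.92e-05 over all probe sets). Mcm6 averaged 7.30, 6.12 and 7.13, a fall of 1.18 (limma adjusted p = 1.1e-05).

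**Figure D2:**
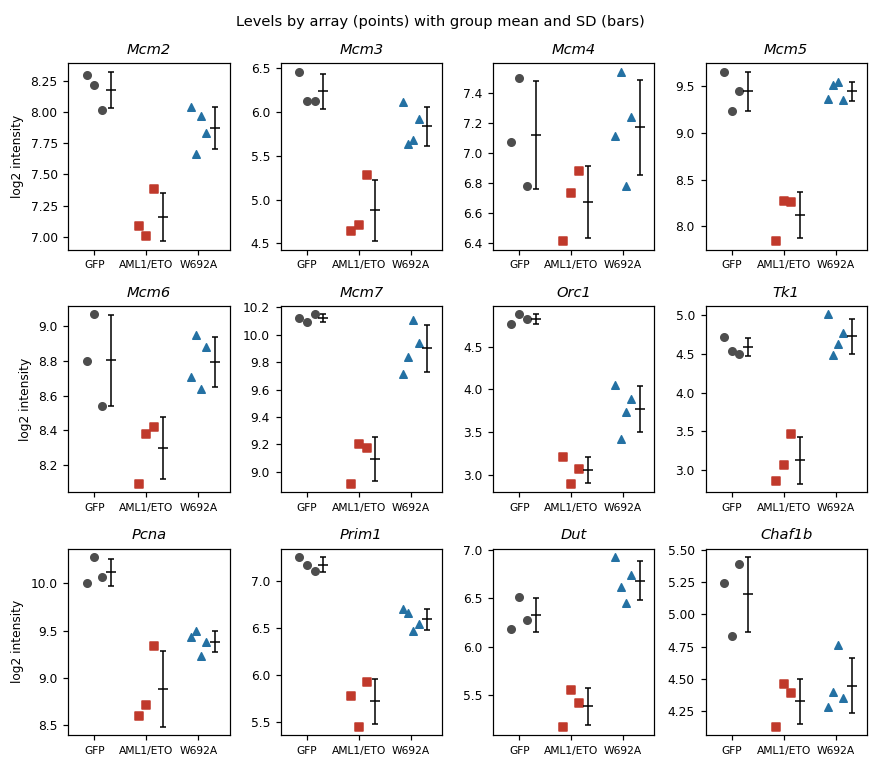
Log2 intensity on each array for the 6 MCM subunits and 6 other members, with 1 panel per gene, a vertical scale of its own in each panel, 1 point per array, and bars for the group mean and SD (3 GFP, 3 AML1/ETO and 4 W692A arrays). W692A lies with GFP for Mcm5 and Tk1, above GFP on average for Dut, between the other groups for Orc1 and Prim1, and with AML1/ETO for Chaf1b.

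Several promoters of these genes carry letters of the E2F motif near the start site, and 5 of the licensing genes are shown so that those letters can be seen in place. RefSeq promoter windows on GRCm38.p6, from 250 bases before to 50 bases after the start, were matched for 37 of the 43 genes, with 44 windows in all. Mcm4, Gins1, Gins2, Prim2, Pole and Rfc2 were not matched. The stretches below run 5′ to 3′ on the gene's strand, from 180 bases before the start to 30 bases into the gene. Capitals mark each match to TTTCGCGC, TTTGGCGC, TTTCCCGC or TTTGCCGC, or to one of them read on the opposite strand.
Orc1, chr4:108579274-108579483 (+ strand): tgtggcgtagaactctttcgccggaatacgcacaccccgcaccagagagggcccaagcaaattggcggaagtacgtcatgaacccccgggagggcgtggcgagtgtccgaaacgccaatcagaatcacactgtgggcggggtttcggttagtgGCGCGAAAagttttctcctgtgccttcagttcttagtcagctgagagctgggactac
Cdc6, chr11:98907971-98908180 (+ strand): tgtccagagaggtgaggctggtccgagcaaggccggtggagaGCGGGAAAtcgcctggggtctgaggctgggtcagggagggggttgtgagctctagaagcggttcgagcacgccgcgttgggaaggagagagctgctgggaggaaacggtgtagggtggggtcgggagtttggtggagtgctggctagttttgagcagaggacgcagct
Mcm5, chr8:75109329-75109538 (+ strand): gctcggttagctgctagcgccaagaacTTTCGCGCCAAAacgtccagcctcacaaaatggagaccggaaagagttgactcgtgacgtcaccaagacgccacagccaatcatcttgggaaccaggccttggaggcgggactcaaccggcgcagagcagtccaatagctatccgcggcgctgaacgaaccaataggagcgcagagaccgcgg
Mcm6, chr1:128359676-128359885 (- strand): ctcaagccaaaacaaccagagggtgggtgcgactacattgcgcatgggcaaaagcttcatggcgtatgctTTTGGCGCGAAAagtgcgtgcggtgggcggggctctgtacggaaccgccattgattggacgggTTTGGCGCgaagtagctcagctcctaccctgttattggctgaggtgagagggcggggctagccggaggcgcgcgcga
Mcm7, chr5:138171854-138172063 (- strand): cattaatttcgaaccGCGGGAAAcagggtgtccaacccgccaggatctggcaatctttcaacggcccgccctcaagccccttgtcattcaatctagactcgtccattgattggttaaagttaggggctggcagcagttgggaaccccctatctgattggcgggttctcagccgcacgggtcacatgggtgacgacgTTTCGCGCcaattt

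In Orc1 the match began 27 bases before the start, and in Mcm5 overlapping matches began 153 and 149 bases before it. Mcm6 held matches 110, 106 and 47 bases before the start. These E2F letters were present in 13 of the 44 windows (29.5%), against 2.26% of all 32851 windows and 3.21% of the windows of the genes tested. They lay in the promoters of Cdc6, Cdt1, Gins3, Lig1, Mcm3, Mcm5, Mcm6, Mcm7, Orc1, Pola1, Pold1, Pole2 and Rfc3. CCAAT, read on both strands like the other motifs, was in 54.5% of the windows, against 37.4% both of all windows and of those of tested genes, and its letters overlapped with E2F letters in 1 window. The letters TTTGAA, the core of the element of late cell cycle genes, were in 18.2%, against 17.9% of all windows and 13.4% of those of tested genes. TGTGGT or TGCGGT, letters that RUNX proteins bind, were in 25.0%, against 22.4% and 21.1%. The median differences of the 13 genes with E2F letters were -1.12 for AML1/ETO against GFP, -0.22 for W692A against GFP and 0.82 between the constructs. Those of the 24 genes without were -1.04, -0.18 and 0.73. The fall with AML1/ETO was called for 13 of the 13 and for 23 of the 24.

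Activation of the loaded helicase needs a kinase and a set of factors that join the ring. All 7 listed genes of this step fell with AML1/ETO, with a median difference of -1.17, and 3 of them, Mcm10, Gins3 and Cdc7, also fell with W692A. Cdc7, the kinase subunit, was at 5.44, 5.32 and 4.87 with GFP, at 3.86, 3.54 and 4.07 with AML1/ETO, and at 4.65, 4.75, 3.99 and 4.51 with W692A. Both constructs lay below the vector on every array, and they overlapped with each other. The fall was 2.61-fold with AML1/ETO (limma adjusted p = 8.17e-05) and 1.66-fold with W692A (limma adjusted p = 0.017). The fall with W692A did not pass without GFP replicate 1 or GFP replicate 2 (limma adjusted p = 0.0979 and 0.0719). Dbf4, the regulatory subunit of that kinase, was at 4.82, 4.86 and 4.11 with GFP and at 3.62, 3.77 and 4.11 with AML1/ETO. GFP replicate 3 matched the highest AML1/ETO array. The 1.69-fold fall passed (limma adjusted p = 0.00936), but not without GFP replicate 1 or GFP replicate 2 (limma adjusted p = 0.0528 and 0.0527).

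Mcm10, a factor that helps to activate the helicase, was at 5.84, 5.41 and 5.41 with GFP, at 3.98, 3.98 and 4.55 with AML1/ETO, and at 4.97, 4.97, 5.02 and 5.18 with W692A. The groups were fully apart, with W692A in the middle. The fall was 2.61-fold with AML1/ETO (limma adjusted p = 1.22e-05) and 1.43-fold with W692A (limma adjusted p = 0.0369). The second fall did not pass without GFP replicate 1, GFP replicate 2, or W692A replicate 1, 2 or 3 (limma adjusted p = 0.197, 0.0502, 0.0694, 0.0817 and 0.0655). The GINS complex holds the active helicase together, and its listed subunits took different levels with W692A. Gins1 was at 7.91, 7.85 and 7.97 with GFP, at 6.72, 6.72 and 6.76 with AML1/ETO, and at 8.17, 7.96, 7.81 and 7.90 with W692A. Its W692A arrays spread around the GFP values, 2.34-fold above AML1/ETO (limma adjusted p = 1.97e-06). Gins3 was at 4.58, 4.49 and 4.55 with GFP, at 3.17, 3.17 and 3.51 with AML1/ETO, and at 3.89, 4.26, 3.67 and 3.76 with W692A. It fell 2.38-fold with AML1/ETO (limma adjusted p = 1.33e-05) and 1.56-fold with W692A (limma adjusted p = 0.00638). Gins2 fell 1.96-fold with AML1/ETO (limma adjusted p = 2.91e-05) and had nearly the same mean with W692A (6.20) as with GFP (6.21). Cdc45, which joins the ring with GINS, fell 2.11-fold with AML1/ETO (limma adjusted p = 9.24e-06). Its W692A values of 3.16 to 3.33 were below all GFP values of 3.48 to 3.73, a difference of -0.36 that did not pass (limma adjusted p = 0.057).

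Polymerases and primase make and extend the new strands. All 8 genes fell at least 2-fold with AML1/ETO, with a median difference of -1.28, and 3 of them, Pola2, Prim1 and Prim2, fell with W692A. Pola1, the catalytic subunit of the polymerase that starts each strand, was at 7.55, 7.82 and 7.30 with GFP, at 5.78, 6.19 and 6.46 with AML1/ETO, and at 6.80, 7.28, 6.85 and 7.21 with W692A. It fell 2.66-fold with AML1/ETO (limma adjusted p = 3.4e-05), and its difference of -0.52 with W692A did not pass (limma adjusted p = 0.064), with no overlap between W692A and GFP. Pola2, its accessory subunit, was at 3.59, 3.70 and 3.71 with GFP, at 2.24, 2.20 and 2.54 with AML1/ETO, and at 2.92, 3.06, 3.42 and 2.90 with W692A. The groups were apart, in the order GFP, W692A, AML1/ETO. The fall was 2.53-fold with AML1/ETO (limma adjusted p = 5.61e-06) and 1.51-fold with W692A (limma adjusted p = 0.0094).

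Prim1, the catalytic primase subunit that makes the RNA primers, showed the same order. It was at 7.25, 7.16 and 7.10 with GFP, at 5.78, 5.45 and 5.92 with AML1/ETO, and at 6.70, 6.66, 6.46 and 6.54 with W692A. Its fall was 2.74-fold with AML1/ETO (limma adjusted p = 8.59e-07) and 1.5-fold with W692A (limma adjusted p = 0.00534). By its other probe set, also above the bound on all arrays, only the fall with AML1/ETO passed. The differences there were -1.17 with AML1/ETO and -0.31 with W692A (limma adjusted p = 1.44e-05 and 0.157 over all probe sets). Prim2, the large primase subunit, fell 2.35-fold (limma adjusted p = 4.39e-06) and 1.47-fold (limma adjusted p = 0.0072). By another probe set above the bound on all arrays, Prim2 differed by -1.72 with AML1/ETO and by -1.13 with W692A. The limma adjusted p was 3.43e-07 and 4.25e-05 over all probe sets. Pold2, the second subunit of polymerase delta, which copies the lagging strand, was at 2.92, 2.96 and 3.30 with GFP, at 1.20, 1.45 and 1.95 with AML1/ETO, and at 2.58, 2.82, 3.19 and 3.07 with W692A. Its AML1/ETO values were all below the bound and its other values above it, so the fall was at least 2.03-fold (limma adjusted p = 2.08e-05). With W692A it was at least 1.83-fold higher than with AML1/ETO (limma adjusted p = 6.22e-05). The catalytic subunit Pold1 fell 2.12-fold with AML1/ETO. Pole, the catalytic subunit of the leading-strand polymerase, and Pole2, its second subunit, fell 2.34-fold and 2.18-fold. For these last 3 genes the limma adjusted p was 2.04e-06 to 8.39e-05, and their differences between W692A and GFP, of -0.28 to -0.17, did not pass.

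Pcna is the sliding clamp that tethers polymerases to DNA. It was at 10.00, 10.28 and 10.07 with GFP, at 8.60, 8.71 and 9.34 with AML1/ETO, and at 9.43, 9.50, 9.23 and 9.38 with W692A. All arrays of both constructs lay below those of the vector, and AML1/ETO replicate 3 reached into the W692A range. Pcna fell 2.35-fold with AML1/ETO (limma adjusted p = 4.46e-05) and 1.66-fold with W692A (limma adjusted p = 0.00552). The difference of 0.50 between the constructs passed (limma adjusted p = 0.0355), but not with any one of AML1/ETO replicates 1 and 2 or W692A replicates 1, 2 and 4 left out (limma adjusted p = 0.0666 to 0.193).

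The clamp loader opens Pcna and closes it around DNA. Rfc4 was at 7.40, 7.29 and 7.29 with GFP, at 6.10, 6.41 and 6.31 with AML1/ETO, and at 7.48, 7.48, 7.45 and 7.60 with W692A. W692A was highest on every array, with no overlap between any groups, although the difference of 0.18 from GFP did not pass (limma adjusted p = 0.359). Rfc4 was 2.08-fold lower with AML1/ETO than with GFP (limma adjusted p = 5.49e-06) and 2.35-fold higher with W692A than with AML1/ETO (limma adjusted p = 1.62e-06). Of the other loader subunits, Rfc5 fell 2.61-fold with AML1/ETO (limma adjusted p = 4.34e-07) and Rfc2 fell 2.01-fold (limma adjusted p = 3.91e-05). Rfc3, below the bound on all arrays, gave no fold. Its difference of -0.44 passed (limma adjusted p = 0.0218), but not without GFP replicate 2, AML1/ETO replicate 1 or AML1/ETO replicate 2 (limma adjusted p = 0.113, 0.0917 and 0.0691).

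Replication protein A coats single-stranded DNA, and its 3 subunits are encoded by Rpa1, Rpa2 and Rpa3. Rpa1 fell 1.66-fold with AML1/ETO (limma adjusted p = 0.000125) and Rpa2 fell 1.77-fold (limma adjusted p = 3.28e-05). Rpa3 was at 5.41, 5.85 and 5.73 with GFP, at 5.51, 5.14 and 5.27 with AML1/ETO, and at 6.16, 6.11, 5.26 and 6.00 with W692A. The groups overlapped, and the difference of -0.36 between AML1/ETO and GFP did not pass (limma adjusted p = 0.255). The difference of 0.57 between the constructs was at the threshold (limma adjusted p = 0.0493), and of the 10 arrays only W692A replicate 3 could be left out without losing the call (limma adjusted p = 0.0513 to 0.183 without another one). Of the genes that join Okazaki fragments, the flap nuclease Fen1 fell 2.08-fold with AML1/ETO (limma adjusted p = 1.96e-05). The DNA ligase Lig1 fell 1.75-fold (limma adjusted p = 0.00387), and with W692A it was 2.16-fold higher than with AML1/ETO (limma adjusted p = 0.000307).

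Of the genes that supply deoxynucleotides, 5 of 5 were called lower with AML1/ETO, Tyms from values below background. By their brightest probe sets none of the 5 passed between W692A and the vector by limma. At an unadjusted limma p below 0.05, Dut was higher with W692A. Tk1, the thymidine kinase of the salvage pathway, was at 4.72, 4.54 and 4.50 with GFP, at 2.86, 3.06 and 3.46 with AML1/ETO, and at 5.01, 4.49, 4.63 and 4.77 with W692A. The W692A and GFP values were mixed, more than 1 log2 unit above AML1/ETO. Tk1 fell 2.76-fold with AML1/ETO (limma adjusted p = 6.01e-06) and was 3.03-fold higher with W692A than with AML1/ETO (limma adjusted p = 3.52e-06). Dut, the enzyme that removes dUTP, was at 6.18, 6.52 and 6.28 with GFP, at 5.17, 5.55 and 5.42 with AML1/ETO, and at 6.93, 6.62, 6.45 and 6.74 with W692A. Its W692A values overlapped with GFP at the lower end, and the difference of 0.36 did not pass (limma adjusted p = 0.113). It was 1.93-fold lower with AML1/ETO than with GFP (limma adjusted p = 0.000166) and 2.47-fold higher with W692A than with AML1/ETO (limma adjusted p = 1.05e-05). Rrm1 and Rrm2, the subunits of ribonucleotide reductase, fell 1.88-fold and 1.91-fold with AML1/ETO (limma adjusted p = 3.15e-05 and 5.32e-05). Another Rrm2 probe set above the bound on all arrays was called lower with W692A (-0.60, limma adjusted p = 0.0398 over all probe sets). The remaining one differed by 0.19 and did not pass (limma adjusted p = 0.471). Tyms, thymidylate synthase, lay below the bound on all arrays, with a difference of -0.58 that passed (limma adjusted p = 0.00249) and gives no fold. The call was lost when its probe sets were averaged (a difference of -0.15, limma adjusted p = 0.225), and with AML1/ETO its 3 other probe sets, also below the bound, differed from GFP by 0.08, 0.18 and -0.26, none of which passed.

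Slbp binds the stem-loop of histone messages and Chaf1b is a subunit of the chromatin assembly factor that places histones behind the fork. Slbp fell 1.79-fold with AML1/ETO (limma adjusted p = 0.0047). Its difference between the constructs, 0.72, passed (limma adjusted p = 0.0126), but not without AML1/ETO replicate 2 (limma adjusted p = 0.0542). Chaf1b was at 5.24, 4.83 and 5.39 with GFP, at 4.13, 4.46 and 4.39 with AML1/ETO, and at 4.28, 4.40, 4.76 and 4.35 with W692A. Both constructs lay below the vector and overlapped with each other. Chaf1b fell 1.77-fold with AML1/ETO (limma adjusted p = 0.00118) and 1.63-fold with W692A (limma adjusted p = 0.00592), and the difference of 0.12 between the constructs had an SE of 0.154 (limma adjusted p = 0.687).

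**Figure D3:**
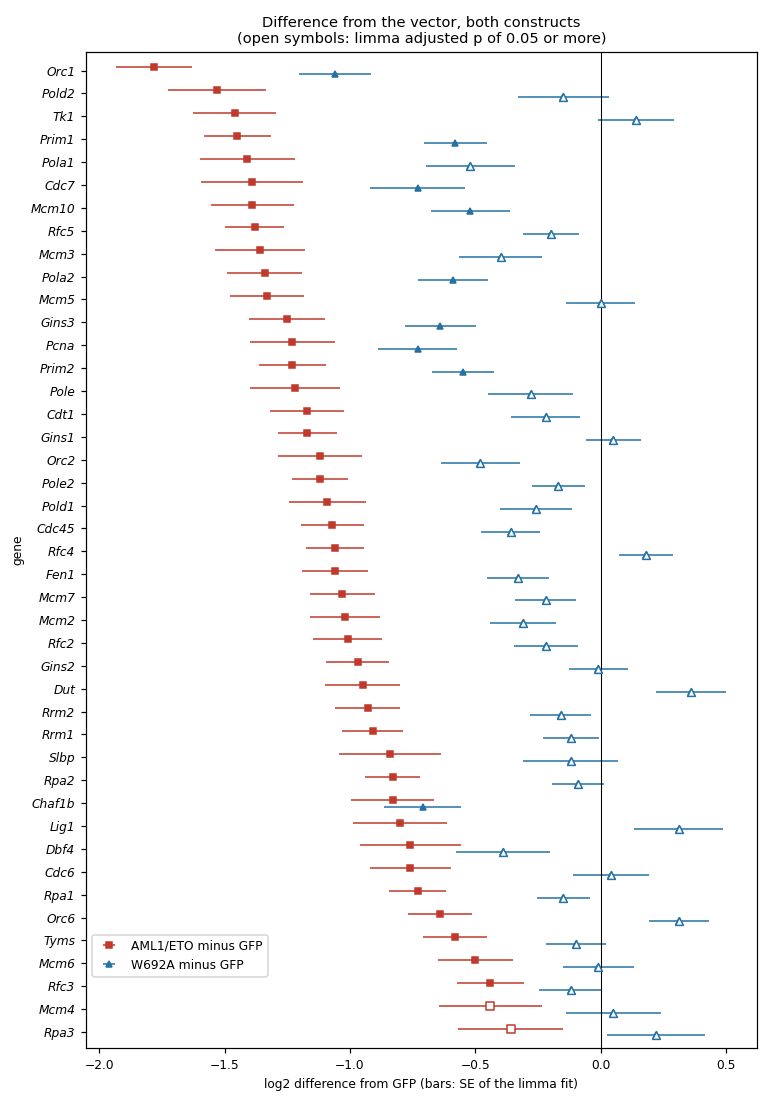
Log2 difference from GFP for each of the 43 genes with AML1/ETO (squares) and W692A (triangles), in order of the AML1/ETO difference, with bars for the SE of the limma fit and open symbols where the adjusted p was 0.05 or more. The AML1/ETO squares run from -1.78 for Orc1 to -0.36 for Rpa3, and the W692A triangles from -1.06 for Orc1 to 0.36 for Dut. Both sets of differences share the 3 GFP arrays.

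Read across groups, AML1/ETO had the lowest mean for all 43 genes, against 7469 of all 18193 genes. GFP was highest and W692A in the middle for 34, and W692A was highest for 9, against 4529 and 2940 of all genes. AML1/ETO was called lower than both other groups for 38 of the 43 (88.4%), against 7.66% of all genes. The W692A level sat at a median of 79.3% of the way from AML1/ETO up to GFP. These shares use the same arrays in each comparison and are given as a description. Apart from Orc1, the 8 genes that fell with W692A were Mcm10, Gins3, Cdc7, Pola2, Prim1, Prim2, Pcna and Chaf1b. Their differences were -0.73 to -0.52 by their brightest probe sets. All W692A arrays were below all GFP arrays for 17 of the 43 genes (12.5% of all genes), and above them for 2, Orc6 and Rfc4 (9.85% of all genes). Leaving out 1 array brought further calls in this comparison: Pola1 (limma adjusted p = 0.0419 to 0.0484 without GFP replicate 3 or AML1/ETO replicate 1 or 3), Dbf4 (0.0275 without GFP replicate 3) and Fen1 (0.0462 without AML1/ETO replicate 3). Between the constructs, the genes that did not pass were Mcm4, which did without W692A replicate 3 (limma adjusted p = 0.0291), Dbf4, Rfc3 and Chaf1b. For 37 of the 43 every W692A array lay above every AML1/ETO array (13.7% of all genes). Beside those of Pcna, Rpa3 and Slbp, calls between the constructs were lost for Mcm6 (limma adjusted p = 0.054 to 0.111 without AML1/ETO replicate 1 or W692A replicate 2 or 4) and for Cdc7 (0.0534 to 0.129 without AML1/ETO replicate 1 or 2 or W692A replicate 1, 2 or 4). So were those of Orc2 (limma adjusted p = 0.0589 without AML1/ETO replicate 2) and Tyms (limma adjusted p = 0.0606 without AML1/ETO replicate 1).

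Most of the falls called with W692A were no longer called with a control signal given above as a covariate. In both of these signals the GFP and W692A arrays do not overlap. With the Gapdh difference of each array as a covariate, 1 of the 9 genes still passed, Orc1, and the median of the 43 was -0.03 in place of -0.20. With the 18S signal as a covariate, 1 gene passed, again Orc1, and the median was -0.13. Over all genes the count called lower with W692A went from 1651 to 276 and 163 in these fits, and the control signals and the construct cannot be told apart here. With AML1/ETO, 36 and 37 of the 43 were lower than GFP with these covariates, with medians of -0.96 and -1.01. Of all genes, 11.2% and 10.2% were called lower in that comparison. Mcm6, Dbf4, Rfc3 and Tyms passed in neither fit, Cdc6 not with Gapdh and Chaf1b not with 18S, where Rpa3 did. With the same covariates, 39 and 32 of the 43 were higher with W692A than with AML1/ETO, where 8.09% and 5.83% of all genes were.

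**Figure D4:**
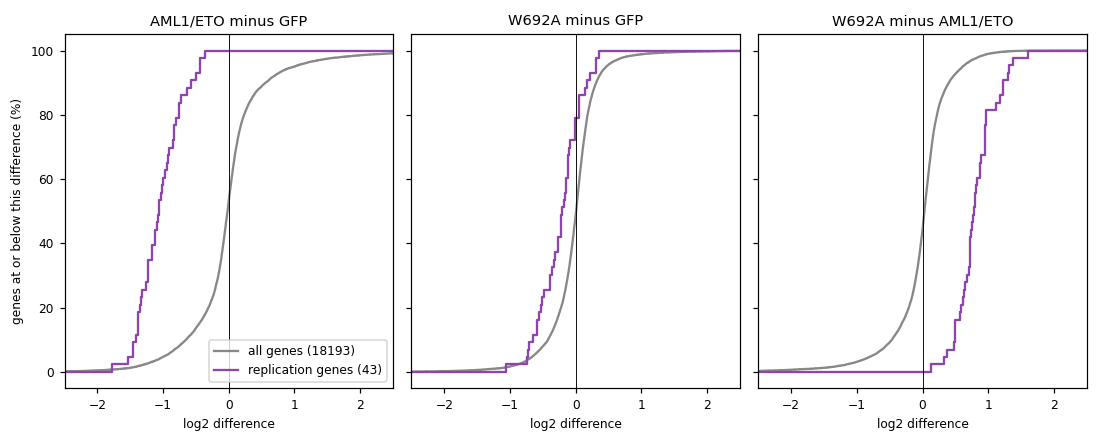
Cumulative share of genes (vertical axis, %) at or below each log2 difference (horizontal axis), for the 43 replication genes and for all 18193 genes in each of the 3 comparisons. The replication genes lie to the left of all genes for AML1/ETO against GFP (median -1.06 against -0.02), slightly to the left for W692A against GFP (-0.20 against 0.01), and to the right for W692A against AML1/ETO (0.78 against 0.03).

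Bright genes pass the test more often than dim ones, so the fit was also run on only the 8820 genes whose mean exceeded the bound in some group, which include 41 of the 43. With AML1/ETO, 39 of these 41 fell and 31.4% of the bright genes did. With W692A, 12 of the 41 were called lower and 18.9% of the bright genes were, the 3 beyond the 9 above being Orc2, Cdc45 and Pola1 (limma adjusted p = 0.0395, 0.0438 and 0.046). Between the constructs, 38 of the 41 were higher and 20.4% of the bright genes were. Among 52 further probe sets of 34 of the genes, 20 were above the bound on all arrays. Of these 20, all were called lower with AML1/ETO, and all were called higher with W692A than with AML1/ETO. With W692A against the vector, 4 were called lower, those of Mcm2, Mcm7, Prim2 and Rrm2. Of all 52, 6 were called lower in that comparison, which adds dimmer probe sets of Mcm3 and Fen1.

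Genes with related work moved in the same direction. Of 42 other replication genes measured, 36 fell with AML1/ETO and none rose (median -0.79). Of all genes, 15.8% were called lower and 12.9% higher. Genes of these other lists were picked by the size of the fitted difference, background values included, so a fold given as at least its size has no rank. Those picked here were Shmt1, which makes one-carbon units for thymidylate (3.98-fold), Umps, which makes UMP (3.46-fold), and Orc5, another subunit of the origin recognition complex (at least 1.47-fold). With W692A, 8 of the 42 fell (median -0.16), where 9.07% of all genes were called lower. Among these 8 were Umps (1.74-fold), Atad5, which unloads Pcna (1.68-fold), and Orc5 (at least 1.47-fold). Between the constructs 31 were higher with W692A (median 0.66), where 9.61% of all genes were. They were led by Shmt1 (2.56-fold), the fork protection factor Tipin (2.21-fold) and the helicase Recql4 (2.2-fold). All of these had a limma adjusted p of 1.35e-07 to 0.0114.

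Of 27 mitosis genes, all fell with AML1/ETO (median -1.01), where 15.8% of all genes were called lower. With W692A, 3 fell (median -0.12), where 9.07% of all genes were called lower. All 27 were higher with W692A than with AML1/ETO (median 0.87), where 9.61% of all genes were called higher. The largest falls with AML1/ETO were in the mitotic kinase Aurkb (3.23-fold) and in the spindle motors Kif20a (2.84-fold) and Kif23 (2.59-fold). With W692A, Aurkb (1.63-fold), the motor Kif11 (1.46-fold) and Kif20a (1.43-fold) fell. Kif23 (2.55-fold), the checkpoint kinase Bub1b (2.1-fold) and the midzone protein Prc1 (2.08-fold) were the most raised with W692A over AML1/ETO. All of these had a limma adjusted p of 5.98e-07 to 0.0137.

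The regulators of S phase entry were mixed. Of 32 genes for E2F proteins, cyclins, their kinases and inhibitors, 15 fell and 3 rose with AML1/ETO (median -0.47). Over all genes, 15.8% were called lower and 12.9% higher in that comparison. Ccnd1, a G1 cyclin (3.77-fold), Ccna2, the S phase cyclin (2.79-fold), and Cdkn1c, a kinase inhibitor (at least 1.36-fold), were among those that fell, and E2f3, an activating E2F, was 1.46-fold higher (limma adjusted p = 0.00277). The other rises were in the inhibitors Cdkn1b and Cdkn2b, which lay below the bound on all arrays (differences of 0.79 and 0.41). With W692A, 8 fell, among them Ccnd1 (2.69-fold), Cdkn1c (at least 1.36-fold) and Tfdp2, an E2F partner (1.68-fold). The cyclin Ccne1 (1.53-fold) and the inhibitor Cdkn2c (1.44-fold) rose with W692A. Over all genes, 9.07% were called lower and 5.45% higher with W692A. Between the constructs 15 were higher and 2 lower with W692A, where 9.61% of all genes were called higher and 11.1% lower. Fbxo5, an inhibitor of the anaphase-promoting complex (2.24-fold), Ccna2 (2.12-fold) and E2f2 (at least 1.43-fold) were among the higher ones. The lower ones were Cdkn1b (a difference of -0.92, below the bound) and the retinoblastoma gene Rb1 (1.48-fold). Those named here for a fall or rise had a limma adjusted p of 1.56e-07 to 0.0435.

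**Figure D5:**
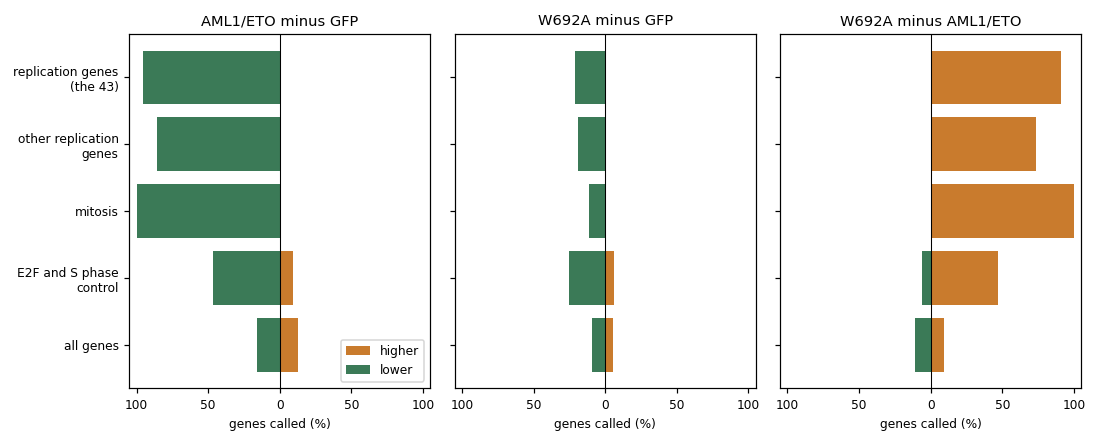
Percent of the genes of each list called lower (left) and higher (right) at a limma adjusted p below 0.05, in each of the 3 comparisons, for the 43 replication genes, 42 other replication genes, 27 mitosis genes, 32 genes of E2F and S phase control and all 18193 genes. The first 3 lists show calls in 1 direction only within each comparison, and the control genes show calls both ways.

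Markers of cell types shifted between the groups as well. Over all genes, 15.8% were called lower and 12.9% higher with AML1/ETO, and 9.07% and 5.45% with W692A. The mean of 11 stem and progenitor markers was 4.56 to 4.72 over the GFP arrays, 5.97 to 6.05 with AML1/ETO and 5.32 to 5.54 with W692A, so the groups did not overlap, and 8 of the 11 rose and 1 fell with AML1/ETO. The mean of 10 erythroid markers was 2.73 to 2.97 with GFP, 1.81 to 2.10 with AML1/ETO and 1.96 to 2.11 with W692A. Of these, Epor, Alas2, Hba-a1, Slc4a1, Ermap and Rhag were below the bound on all arrays, and 4 of the 10 were called lower with each construct. The means of 11 neutrophil markers were 5.43 to 5.88, 5.05 to 5.83 and 4.99 to 5.42. AML1/ETO overlapped with both other groups, and W692A lay just below GFP. Of the 11, 6 fell and 2 rose in both comparisons with the vector. The means of 10 monocyte markers were 3.61 to 3.80, 4.33 to 4.50 and 4.21 to 4.42, with 4 rising with AML1/ETO, 5 with W692A and none falling. For 10 megakaryocyte markers they were 4.15 to 4.37, 3.47 to 3.68 and 3.31 to 3.67. Of these, 6 fell and 3 rose with AML1/ETO, and 6 fell and 2 rose with W692A. For 10 mast cell, basophil and eosinophil markers the means were 4.87 to 5.38, 4.62 to 5.64 and 4.12 to 4.44. Of these, 4 fell and 3 rose with AML1/ETO, and 4 fell and 2 rose with W692A. Of the B lymphoid markers 3 of 9, of the T and NK markers 1 of 7, and of the stromal and endothelial markers 5 of 11 exceeded the bound on any array. The means of these 11 stromal and endothelial markers, all below the bound, were 1.12 to 1.23, 1.75 to 1.85 and 1.01 to 1.10. With AML1/ETO 6 of them rose and 1 fell, and with W692A 2 rose and 2 fell. The part of these shifts in the falls of the replication genes was not tested.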

How the data were processed

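RNA of 10 sorted cell samples was measured on 1 Affymetrix array each. The authors deposited 1 log2 intensity for each probe set and array, made with RMA according to the submitters' processing notes, which name no version. RMA brings the arrays to a common intensity distribution, so a change in total RNA per cell would not appear. The log base is not stated: the highest value, 12.77, would be 350219 as a natural log, above the 65535 of a 16-bit scanner, and 6967 in base 2. Of 45101 probe sets, 34945 had 1 gene symbol, 34741 of them updated by gene ID to the GRCm38.p6 annotation, and 932 with several were not used. The brightest probe set by mean represented each of 18193 genes.

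Groups came from the sample labels. One model of the 3 groups was fitted with limma 3.58.1 in R 4.3.3 (lmFit, then eBayes, 7 residual and 7.53 prior degrees of freedom), with Benjamini-Hochberg adjustment over all genes and a threshold of 0.05. The fit was tested on simulated data. The number of arrays limits the precision. A fold is given as at least its size where an array of the dimmer group lay at or below the bound of 2.04, with such values set to the bound, and not where both groups lay below it.

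The members, the other lists, the bound and the alternatives were chosen with earlier results of these data known. Every member is named. The 6 largest falls and rises among called members of each comparison and all MCM subunits have their value on every array; the text adds others. From the other lists, the 3 largest called falls and rises are named, with Runx1 and Runx1t1. Alternatives were filters on dim genes, other probe set rules, further normalization, another variance prior, array weights, fits of 2 groups, the replicate number as a block, control signals as covariates, a 1.5-fold minimum and leaving out each array.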

Additional observations from a re-analysis of the deposited data

Results flagged for a closer look

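In the W692A group, the only one with 4 arrays, replicate 1 stood apart from the other 3 arrays for 3 of the 43 genes, by a gap that took up more of the group's range than Dixon's 95% critical value allows. Rfc3 was at 1.21 there against 1.01 to 1.04, all below the background bound. Rrm1 was at 9.39 against 9.15 to 9.18, and Slbp was at 5.90 against 4.98 to 5.13. The gaps were 0.845, 0.861 and 0.842 of the range. Chance marks about 1 in 20 such groups, and groups of 3 arrays were not examined in this way.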

How the results depend on the processing

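Under the alternatives run, the members called lower with AML1/ETO numbered 36 to 43 in place of 41, and 38 to 42 when 1 array was left out. Those higher with W692A than with AML1/ETO numbered 32 to 42 in place of 39, and 34 to 40 when 1 array was left out. None rose with AML1/ETO or W692A against GFP or was lower with W692A than with AML1/ETO under any alternative. The median for AML1/ETO against GFP was -0.84 when the probe sets of each gene were averaged, in place of -1.06. For W692A against GFP, 5 members were lower with values below the bound set to it, and 1 with the Gapdh or the 18S covariate, in place of 9 (7 to 12 when 1 array was left out). The median was -0.16 with the mean of probe sets, -0.03 with the Gapdh and -0.13 with the 18S covariate, in place of -0.20. The cause of the changes with these settings was not tested. With the replicate number as a block, 41 members were lower with AML1/ETO, 10 were lower with W692A and 37 were higher with W692A than with AML1/ETO, with medians of -1.06, -0.21 and 0.79. Same-numbered arrays had deviations correlated at -0.119 to 0.443, not all above 0.1, so the numbers were not taken as pairs. With a 1.5-fold minimum the counts were 38, 6 and 34.

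Of 89 single calls of members, 64 were kept under every alternative (34, 1 and 29 in the 3 comparisons) and 25 were lost under at least 1, with no change of sign. Of 40 differences that did not pass, 11 passed under at least 1 alternative and 22 changed sign without passing. Over all genes, the split for W692A against GFP was 1352 lower and 1262 higher after further quantile normalization, against 1651 and 991. That for W692A against AML1/ETO was 1682 and 2220 after subtraction of array medians, against 2017 and 1748. With 3 or 4 arrays a group, and Rfc3 and Tyms below the bound throughout, small differences could not be resolved.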
